A study of Mus musculus with 6 samples.

Results

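Oxidative phosphorylation (OXPHOS) genes were examined in liver RNA of mice that lack Wtap in hepatocytes. The members were the protein-coding genes of the deposited table whose symbols begin with Ndufa, Ndufb, Ndufc, Ndufs, Ndufv, Uqcr, Cox4 to Cox8, Atp5 or mt-, or are Sdha, Sdhb, Sdhc or Sdhd. This rule reads names and no measured value. It gave 107 members, 94 on nuclear chromosomes and 13 on the mitochondrial genome, of 22046 protein-coding genes and 54777 genes in all. Of these, 89 nuclear members and all 13 mt- genes reached the mean of 0.2 FPKM over the 6 libraries that was asked of a gene to be tested. The other 5 were Cox4i2, Cox7b2, Cox8b, Cox8c and a second entry named Atp5o.

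The series compared 3 livers of Wtap-HKO mice (Wtapflox/flox Alb-Cre+/-) with 3 livers of Wtapflox/flox mice. Both groups carried the floxed Wtap alleles on a background given as C57BL/6 by the labels and as C57BL/6J by the study's methods, were male, 8 weeks old and fed normal chow, and each library came from a separate mouse. Cre recombinase was driven by the albumin promoter, so that the deletion is directed to hepatocytes while the RNA came from whole liver with its other cell types. A group with Cre alone was not analysed here, so effects of Cre itself cannot be told apart from those of the deletion. The study asked what hepatocyte Wtap does for liver metabolism and fatty liver inflammation. Wtap belongs to the methyltransferase complex that places N6-methyladenosine on RNA, and its whole-gene level (5.86, 6.45 and 5.77 FPKM in Wtap-HKO livers, 5.31, 5.94 and 5.56 FPKM in Wtapflox/flox livers) does not check the removal of a single exon.

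In oxidative phosphorylation, complexes I to IV of the inner mitochondrial membrane pass electrons to oxygen, all but complex II pump protons, and complex V, the ATP synthase, uses the proton gradient to make ATP. Complexes I, III, IV and V are built from subunits of both genomes, since the mitochondrial genome encodes a few hydrophobic core subunits and the nucleus all others, whereas complex II is wholly nuclear. Nuclear subunits are transcribed one by one, translated in the cytosol and imported. The mt- genes are read out as long polycistronic transcripts from each strand, which are cut at the tRNAs between them. Hepatocytes are rich in mitochondria and use their ATP for gluconeogenesis and the urea cycle.

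The values were FPKM, fragments per kilobase of gene length and per unit of library size, and they already held a scaling between libraries. Each value traced back to whole reads, 16254033 to 18510477 per library in Wtap-HKO and 15559250 to 16712433 in Wtapflox/flox. The library size behind the FPKM was 1.17 to 1.24 times this total in Wtap-HKO libraries and 0.834 to 0.846 times in Wtapflox/flox libraries. On this scale the median log2 fold change of all 16547 tested genes was 0.01. On a TPM scale, which gives each library the same sum, that median was 0.52, so the zero point depends on the scaling and called directions below are given with both. Called genes are those with an adjusted p under 0.05 (limma on log2(FPKM + 0.2), Benjamini-Hochberg over all genes tested). Of 6 hepatocyte markers, 5 were called lower in Wtap-HKO (3 on the TPM scale), with a summed level of 26696 to 30961 FPKM in Wtap-HKO against 57062 to 64223 FPKM in Wtapflox/flox. Markers of several other liver cells were called higher, 5 of 6 for monocyte-derived macrophages (37.2 to 49.0 FPKM summed in Wtap-HKO, 7.72 to 13.5 FPKM in Wtapflox/flox) and 4 of 6 for Kupffer cells (336 to 469 FPKM in Wtap-HKO, 218 to 242 FPKM in Wtapflox/flox). On the TPM scale 6 of 6 were called higher for both, against 48.8% of all genes. As deposited, tested markers of stellate cells (5 of 7), cholangiocytes (3 of 5) and neutrophils (3 of 3) were also called higher. Fewer were for sinusoidal endothelium (2 of 6), T and NK cells (1 of 4), B cells (0 of 3) and erythroid cells (0 of 3, with 1 lower). Among all genes, 20.7% were called lower and 19.5% higher, or 43.1% and 14.1% at a mean of 10 FPKM or more. In bulk tissue, fewer cells of a type and less RNA per cell cannot be told apart, and the part of cell composition in the results below was not tested.

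The promoters of 3 members with the largest falls and of 2 members with the highest fold changes among subunits of complexes III and IV that averaged 10 FPKM or more, picked after their values were seen, are shown here, because nuclear OXPHOS genes are known for a common set of promoter motifs. Nuclear respiratory factor 1 (NRF1) binds a palindromic consensus, the GABP factor binds CCGGAAG, YY1 binds AAGATGGCG and the oestrogen-related receptors bind TCAAGGTCA. Each sequence runs 5′ to 3′ from 250 bases before to 50 bases after the RefSeq start (GRCm38.p6), in the direction of transcription, and capitals mark matches to these motifs on either strand.
Sdha, chr13:74350191-74350490, minus strand: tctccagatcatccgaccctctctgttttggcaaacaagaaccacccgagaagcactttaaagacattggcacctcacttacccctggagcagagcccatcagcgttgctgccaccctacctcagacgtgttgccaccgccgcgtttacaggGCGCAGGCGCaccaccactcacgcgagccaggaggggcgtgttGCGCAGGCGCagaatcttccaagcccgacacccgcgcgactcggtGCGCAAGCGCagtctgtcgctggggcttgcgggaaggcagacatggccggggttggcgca
Ndufs7, chr10:80249199-80249498, plus strand: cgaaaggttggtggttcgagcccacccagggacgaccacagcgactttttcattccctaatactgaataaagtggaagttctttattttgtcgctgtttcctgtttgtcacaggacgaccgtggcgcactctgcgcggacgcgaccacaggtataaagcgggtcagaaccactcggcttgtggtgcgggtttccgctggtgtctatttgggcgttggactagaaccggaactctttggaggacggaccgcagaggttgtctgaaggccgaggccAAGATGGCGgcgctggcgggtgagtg
Ndufs8, chr19:3912725-3913024, minus strand: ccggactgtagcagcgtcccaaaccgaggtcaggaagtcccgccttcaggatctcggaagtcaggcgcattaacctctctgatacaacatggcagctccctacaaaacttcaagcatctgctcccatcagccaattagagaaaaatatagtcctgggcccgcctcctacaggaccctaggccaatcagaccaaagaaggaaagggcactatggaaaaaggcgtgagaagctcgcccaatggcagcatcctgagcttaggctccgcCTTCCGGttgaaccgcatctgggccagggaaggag
Uqcrfs1, chr13:30545267-30545566, minus strand: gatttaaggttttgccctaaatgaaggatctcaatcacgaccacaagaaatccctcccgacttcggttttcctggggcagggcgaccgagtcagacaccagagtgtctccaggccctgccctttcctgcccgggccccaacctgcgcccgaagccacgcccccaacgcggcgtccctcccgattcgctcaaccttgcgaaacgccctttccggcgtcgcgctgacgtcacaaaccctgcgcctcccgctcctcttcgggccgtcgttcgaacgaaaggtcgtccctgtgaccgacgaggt
Cox7a2l, chr17:83514284-83514583, minus strand: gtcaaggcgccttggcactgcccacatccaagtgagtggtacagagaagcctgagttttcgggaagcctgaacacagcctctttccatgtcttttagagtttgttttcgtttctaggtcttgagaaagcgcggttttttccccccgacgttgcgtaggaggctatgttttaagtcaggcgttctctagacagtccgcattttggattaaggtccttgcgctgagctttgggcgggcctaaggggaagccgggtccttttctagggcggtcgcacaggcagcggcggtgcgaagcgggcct
The Sdha window held 3 matches to the NRF1 consensus, the Ndufs7 window 1 match to the YY1 letters and the Ndufs8 window 1 match to the GABP letters, while none of the 4 motifs was found in the Uqcrfs1 or Cox7a2l windows. RefSeq windows were matched by symbol for 74 nuclear members. Of these, 25.7% held the NRF1 consensus, against 5.19% of 27025 promoters of all genes. The shares were 24.3% against 9.93% for GABP, 10.8% against 1.64% for YY1 and 2.70% against 0.466% for the oestrogen-related receptors. The responses of members with and without a match are given here as a description, with no test, and over all genes 20.7% were called lower, or 43.1% of those that averaged 10 FPKM or more. The median log2 fold change was -0.31 over the 19 tested members with an NRF1 match and -0.32 over the 53 without, and 8 of the members with a match and 18 of those without were called lower. For GABP it was -0.33 over 18 members with a match (6 called lower) and -0.32 over 54 without (20 called lower). For YY1 it was -0.36 over 8 members with a match (4 called lower) and -0.30 over 64 without (22 called lower). Only 2 tested members had a match for the oestrogen-related receptors, with a median of -0.17 and no call, against -0.33 over 70 without (26 called lower). A match describes the letters of this window and does not show that the factor binds there.

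Nuclear OXPHOS genes stood lower in Wtap-HKO liver as the values were deposited. Of the 89 tested, 32 were called lower and 2 higher, with a median log2 fold change of -0.31, and 72 of 89 lay under the median of all genes. Over all genes, 20.7% were called lower and 19.5% higher. The members' share called lower, 36.0%, was above that background, but OXPHOS transcripts are abundant and abundant genes fell more often as a whole. At that level, 10 FPKM or more on average, 30 of 75 nuclear members were called lower, or 40%, against 43.1% of 3713 genes, and none was called higher, against 14.1%. The share called lower was thus near the background of equally abundant genes. All Wtap-HKO libraries lay below all Wtapflox/flox libraries for 39 of 89 nuclear members, or 43.8%, against 27.4% of all genes. The same share among equally abundant genes was not computed, so no excess over them can be read from this count.

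The directions turned on the TPM scale, in that none of the 89 nuclear members was called lower and 34 were called higher, where 6.06% of all genes were called lower and 48.8% higher (limma). At an unadjusted p under 0.05 there were also 0 lower nuclear members on that scale. Of genes of at least 10 FPKM on average, 13.7% were called lower and 47.6% higher there. The median of the nuclear members was then 0.27, which is 0.25 below the median of all genes, and 70 of 89 lay under it. On the deposited scale they were 0.32 below. Since rescaling to TPM shifts all genes of a library alike, the place of the members relative to the median of all genes is the same on both scales by construction, apart from the pseudocount, and only their sign against 0 could turn. Summed over the 94 nuclear members, the level was 5208, 5908 and 4573 FPKM in Wtap-HKO livers, against 6730, 6889 and 5624 FPKM in Wtapflox/flox livers, so the groups overlapped through Wtap-HKO replicate 2 and Wtapflox/flox replicate 3. As a share of reads the order was the reverse, with 1.11%, 1.16% and 0.974% in Wtap-HKO livers and 0.995%, 1.01% and 0.850% in Wtapflox/flox livers, and the groups overlapped here too.

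**Figure D1:**
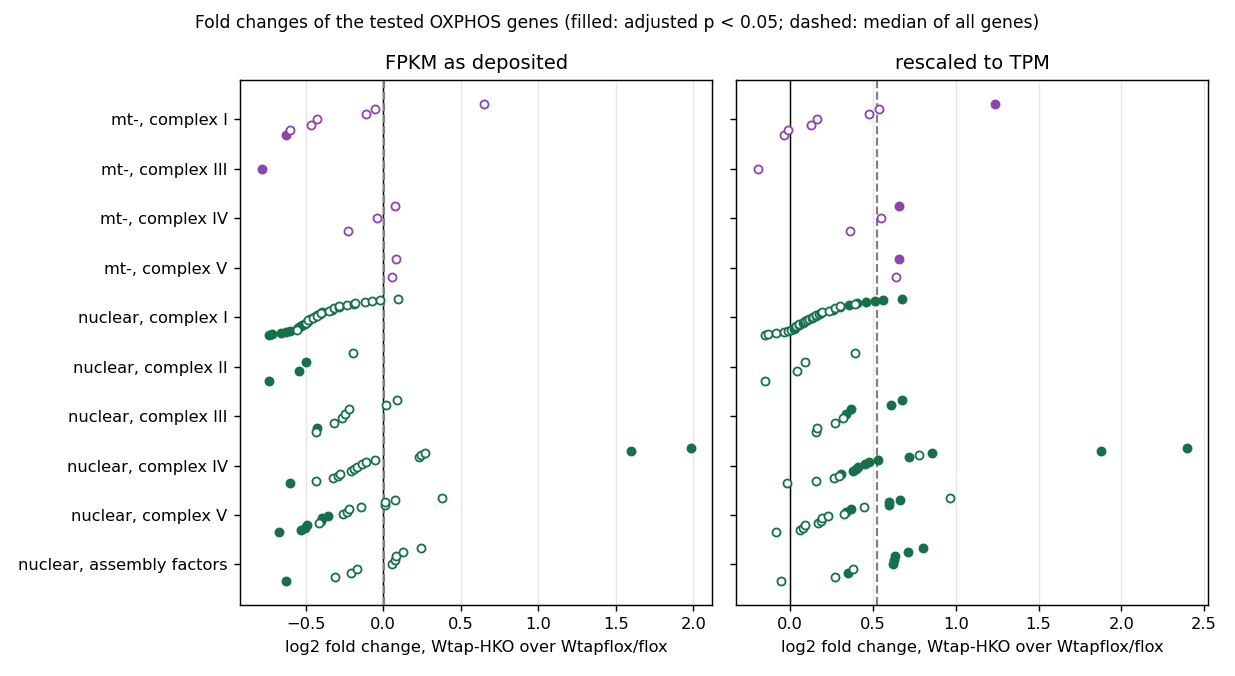
Log2 fold change (x axis, Wtap-HKO over Wtapflox/flox) of each of the 102 tested members by genome and complex, from FPKM as deposited (left) and after rescaling to TPM (right). Filled points had an adjusted p under 0.05, the dashed line is the median of all 16547 genes, and most nuclear complex I genes lie left of it in both panels.

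Complex I, the NADH dehydrogenase that takes electrons from NADH, is the largest of the complexes. Of its 36 nuclear subunits, 19 were called lower, or 52.8%, against 20.7% of all genes, and 18 of the 33 that averaged 10 FPKM or more, or 54.5%, against 43.1% of all genes of that level. Without replicate 3 of both groups 12 were called lower, or 33.3%, where 10% of all genes were. The share of equally abundant genes was not computed without these libraries, so no excess over them can be read there. In the full set none was called higher, and 35 had a negative fold change, with a median of -0.45. None of them was called lower on the TPM scale and 8 were called higher, with a median of 0.13. Ndufs7 and Ndufs8 (iron-sulphur subunits next to the ubiquinone site) had the largest falls. Ndufs7 (ENSMUSG00000020153, at 80249121 to 80256794 of chromosome 10, GRCm38) had 28.8, 31.5 and 24.9 FPKM in Wtap-HKO livers, against 48.1, 47.3 and 46.2 FPKM in Wtapflox/flox livers. All Wtap-HKO values lay below all Wtapflox/flox values, with a log2 fold change of -0.74 ± 0.103 (SE; limma adjusted p = 0.00213), and on the TPM scale it was -0.15 (adjusted p = 0.198). Ndufs8 (ENSMUSG00000059734, chromosome 19, 3908870 to 3912717) stood at 41.7, 42.4 and 35.8 FPKM in Wtap-HKO livers, against 68.8, 63.1 and 65.1 FPKM in Wtapflox/flox livers. Its fold change was -0.72 ± 0.0957 (adjusted p = 0.00182), or -0.13 on the TPM scale (adjusted p = 0.254), and its groups did not overlap either.

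The accessory subunits Ndufb7 and Ndufa6 came next. Ndufa6 stood at 51.7, 61.3 and 46.3 FPKM in Wtap-HKO livers and at 84.5, 84.2 and 75.8 FPKM in Wtapflox/flox livers, a change of -0.62 ± 0.121 (adjusted p = 0.00723) that was -0.04 on the TPM scale. Ndufb7 was at 8.77, 9.11 and 6.82 FPKM in Wtap-HKO livers and at 14.3, 13.3 and 11.6 FPKM in Wtapflox/flox livers, with a change of -0.66 ± 0.141 (adjusted p = 0.0106), or -0.08 on the TPM scale. Among other core subunits, Ndufs1, which holds iron-sulphur clusters of the NADH arm, was called lower at -0.53 ± 0.0843 (adjusted p = 0.00347). Ndufv1, which binds NADH and the flavin, was called lower at -0.51 ± 0.158 (adjusted p = 0.0412). On the TPM scale Ndufs1 and Ndufv1 were at 0.05 and 0.08, so their sign turned and neither was called. The groups of Ndufv1 barely parted, with a highest Wtap-HKO value of 46.1 FPKM and a lowest Wtapflox/flox value of 47.7 FPKM.

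Complex II, the succinate dehydrogenase that also serves in the tricarboxylic acid cycle, was lower for 3 of its 4 subunits, or 75%, against 20.7% of all genes and 43.1% of genes that averaged 10 FPKM or more, as all 4 did. Sdha, the flavoprotein that oxidises succinate (ENSMUSG00000021577, chromosome 13, 74322254 to 74350280), stood at 88.6, 89.8 and 75.3 FPKM in Wtap-HKO livers, against 148, 146 and 129 FPKM in Wtapflox/flox livers. This was the most negative fold change of any nuclear member, at -0.74 ± 0.109 (limma adjusted p = 0.00262), and -0.15 on the TPM scale (adjusted p = 0.231). Its iron-sulphur partner Sdhb was at 51.0, 54.9 and 41.8 FPKM in Wtap-HKO livers and at 74.7, 73.0 and 60.8 FPKM in Wtapflox/flox livers. The membrane anchor Sdhc was at 29.5, 29.7 and 26.4 FPKM in Wtap-HKO livers and at 42.0, 43.5 and 39.4 FPKM in Wtapflox/flox livers. Both fell on the deposited scale, Sdhb by 0.50 (adjusted p = 0.0247) and Sdhc by 0.54 (adjusted p = 0.00356), and both were slightly positive on the TPM scale, at 0.09 and 0.04, without a call. The other anchor, Sdhd, was at 134, 146 and 103 FPKM in Wtap-HKO livers and at 156, 165 and 118 FPKM in Wtapflox/flox livers, with overlapping groups and no call (-0.19 ± 0.178, adjusted p = 0.415). Within a library, which no scaling can change, the ratio of Sdha to Sdhd was 0.662, 0.615 and 0.728 in Wtap-HKO livers, against 0.954, 0.887 and 1.09 in Wtapflox/flox livers.

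Complex III, which passes electrons from ubiquinol to cytochrome c, had 1 of its 8 nuclear members called lower, or 12.5%, against 20.7% of all genes and 43.1% of genes that averaged 10 FPKM or more, as all 8 did. This was Uqcrc1, a core protein of the matrix side, at 54.7, 58.5 and 45.4 FPKM in Wtap-HKO livers against 74.1, 71.7 and 66.4 FPKM in Wtapflox/flox livers (-0.42 ± 0.115, limma adjusted p = 0.0253), and at 0.16 on the TPM scale. Uqcrfs1, the Rieske iron-sulphur protein, was at 158, 205 and 144 FPKM in Wtap-HKO livers and at 170, 173 and 132 FPKM in Wtapflox/flox livers. Its groups overlapped and it was not called (0.09 ± 0.171, adjusted p = 0.70), whereas on the TPM scale, together with 3 others of this complex, it was called higher (0.68, adjusted p = 0.00692). That was 50% of the nuclear members of complex III, against 48.8% of all genes on that scale. The ratio of Uqcrfs1 to Uqcrc1 within a library was 2.90, 3.51 and 3.16 in Wtap-HKO livers, against 2.29, 2.42 and 1.98 in Wtapflox/flox livers, with no overlap.

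For complex IV, cytochrome c oxidase, 16 of 20 nuclear members were tested, of which 1 was called lower and 2 higher, or 6.25% and 12.5%, against 20.7% and 19.5% of all genes. Of the 12 that averaged 10 FPKM or more 1 was called lower, or 8.33%, against 43.1% of all genes of that level. The median of the 16 was -0.16, or 0.43 on the TPM scale. There none was called lower and 11 were called higher, or 68.75%, against 48.8% of all genes. The 1 that fell was Ndufa4, a subunit first assigned to complex I and now placed in complex IV, at 108, 121 and 101 FPKM in Wtap-HKO livers against 175, 178 and 148 FPKM in Wtapflox/flox livers (-0.60 ± 0.116, limma adjusted p = 0.00711), with -0.02 on the TPM scale. The early-assembling subunits Cox4i1 and Cox5a did not pass the test. Cox4i1 was at 193, 229 and 189 FPKM in Wtap-HKO livers and at 245, 257 and 237 FPKM in Wtapflox/flox livers (-0.28 ± 0.109, adjusted p = 0.0824). Cox5a was at 35.0, 38.4 and 28.8 FPKM in Wtap-HKO livers and at 42.6, 42.0 and 31.0 FPKM in Wtapflox/flox livers (-0.17 ± 0.163, adjusted p = 0.430). Both were called higher on the TPM scale, by 0.31 (adjusted p = 0.0255) and 0.41 (adjusted p = 0.0450).

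Cox7a2l had the highest fold change among complex IV subunits that averaged 10 FPKM or more, below those of Cox6a2 and Cox6b2, and it was not called as deposited. It was at 92.0, 116 and 90.4 FPKM in Wtap-HKO livers and at 82.3, 93.6 and 71.2 FPKM in Wtapflox/flox livers, with overlapping groups (0.27 ± 0.144, limma adjusted p = 0.176), and with a call on the TPM scale (0.86, adjusted p = 0.00136). As a share of the summed nuclear OXPHOS FPKM it was 1.77%, 1.96% and 1.98% in Wtap-HKO livers, against 1.22%, 1.36% and 1.27% in Wtapflox/flox livers, and Sdha was 1.70%, 1.52% and 1.65% in Wtap-HKO livers, against 2.21%, 2.12% and 2.29% in Wtapflox/flox livers. With all libraries set to the same summed nuclear OXPHOS FPKM, a scaling added after the data had been seen, 5 nuclear members were called higher and 4 lower, where 24.6% of all genes were called higher and 8.27% lower. This scaling holds the members' own sum equal, so some lie above and others below 0 by construction. The calls only show which members stand apart from that sum and are no separate support for their changes. The higher ones were Cox7a2l (0.57, adjusted p = 0.00673), Uqcrfs1 (0.39, adjusted p = 0.0326), the assembly factor Ndufaf7 (0.53, adjusted p = 0.0429, named after its value was seen), Cox6a2 and Cox6b2. The lower ones were Sdha (-0.44, adjusted p = 0.0170), Ndufs7 (-0.44, adjusted p = 0.0223), Ndufs8 (-0.42, adjusted p = 0.0352) and Ndufa6 (-0.33, adjusted p = 0.0458).

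**Figure D2:**
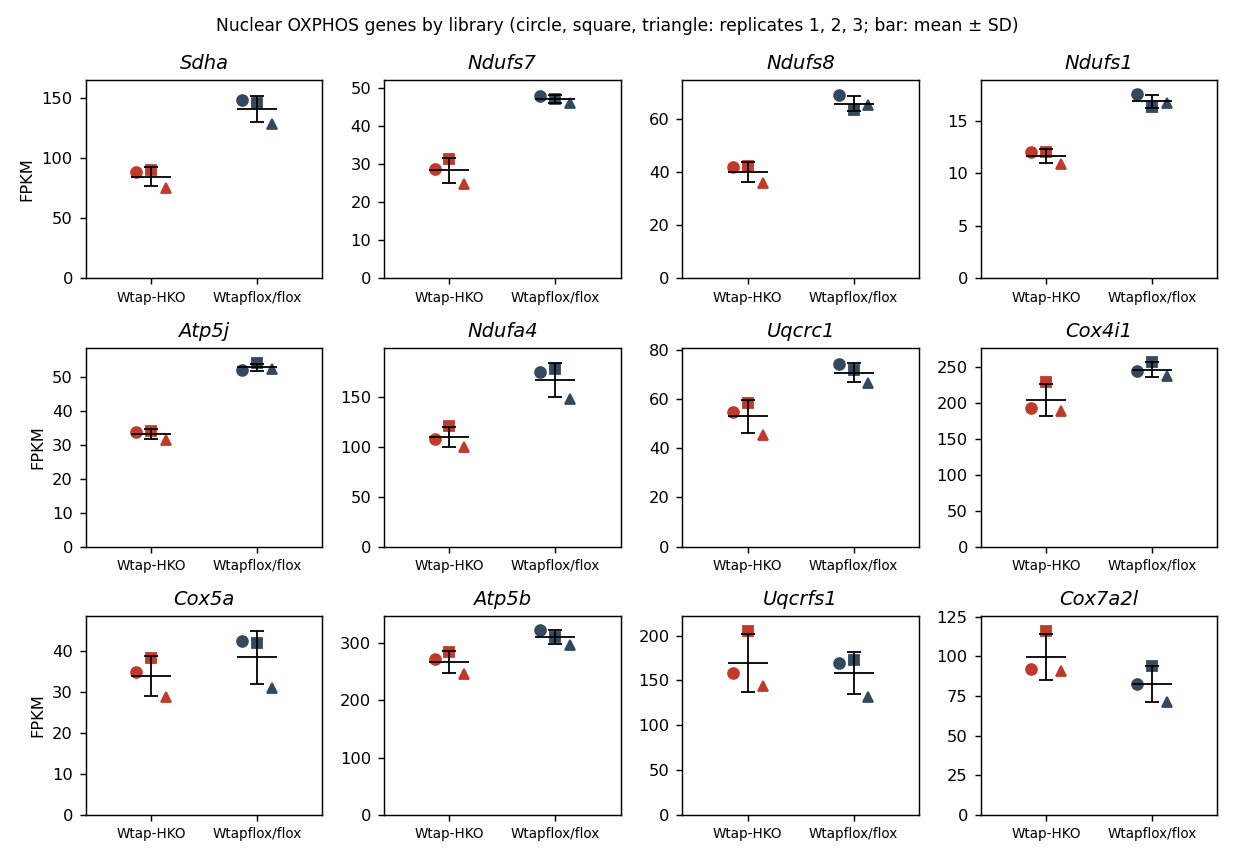
FPKM (y axis, from 0) of 12 nuclear members in the 3 Wtap-HKO livers (left in each panel) and the 3 Wtapflox/flox livers (right), with each replicate as its own symbol and the bar at the mean ± SD. Sdha, Ndufs7, Ndufs8, Ndufs1, Atp5j, Ndufa4, Uqcrc1, Cox4i1 and Atp5b show no overlap between the groups, while Cox5a, Uqcrfs1 and Cox7a2l overlap, and replicate 3 (triangle) is often the lowest of its group.

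The tissue isoforms of complex IV were near the floor in liver. Cox6a1, Cox6b1, Cox7a2, Cox7b and Cox8a, the widely expressed forms, ranged between 63.2 and 411 FPKM over the libraries and none was called as deposited, while Cox6a1, Cox6b1 and Cox8a were called higher on the TPM scale. Of their partners known from heart and skeletal muscle or from testis, Cox8b, Cox7b2 and Cox8c had no read in any library. Cox4i2, the form known from lung, had 4 reads over the Wtap-HKO livers and none over the Wtapflox/flox livers, too few for a fold. Cox7a1, the muscle form, was at 2.41, 4.16 and 1.78 FPKM in Wtap-HKO livers and at 2.30, 3.04 and 1.49 FPKM in Wtapflox/flox livers (adjusted p = 0.610, limma). Ndufa4l2 was at 1.26, 0.931 and 0.963 FPKM in Wtap-HKO livers and at 0.774, 1.03 and 0.792 FPKM in Wtapflox/flox livers (adjusted p = 0.366, and 0.72 with an adjusted p = 0.0229 on the TPM scale), far below Ndufa4 per length.

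The only members called higher as deposited were the muscle form Cox6a2 and the testis form Cox6b2, both at very low levels. Cox6b2 was at 1.25, 2.51 and 1.18 FPKM in Wtap-HKO livers, against 0.208, 0.447 and 0.130 FPKM in Wtapflox/flox livers, which were 115 reads in Wtap-HKO and 12 reads in Wtapflox/flox. Its log2 fold change was 1.98 ± 0.364 (limma adjusted p = 0.00592), and 2.40 on the TPM scale, and it stayed called without any single library. Cox6a2 was at 0.701, 0.409 and 0.664 FPKM in Wtap-HKO livers, against 0.226, 0 and 0 FPKM in Wtapflox/flox livers, which were 25 reads and 2 reads, a ratio of 8.20 after scaling with a 95% exact counting interval of 2.04 to 71.4. It was called (1.60 ± 0.395, adjusted p = 0.0182), and lost the call without Wtap-HKO replicate 1 or 3 or without Wtapflox/flox replicate 2 or 3 in turn. The 5 markers of striated muscle summed to 0.0634 to 0.235 FPKM in Wtap-HKO livers and to 0 in Wtapflox/flox livers, with Ckm and Myh7 at 0 in all libraries. With replicate 3 of both groups left out, neither Cox6a2 nor Cox6b2 was called.

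Complex V, the ATP synthase, was lower for 7 of 16 tested nuclear members, or 43.8%, against 20.7% of all genes, and for 7 of the 15 that averaged 10 FPKM or more, or 46.7%, against 43.1% of all genes of that level. Without replicate 3 of both groups it was lower for 1 member, or 6.25%, where 10% of all genes were called lower and the share of equally abundant genes was not computed. With all libraries the median was -0.31. On the TPM scale none was called lower, with a median of 0.28, and 5 were called higher, or 31.25%, against 48.8% of all genes. Atp5j, coupling factor 6 of the stalk, had the smallest p of all members. It was at 33.9, 34.0 and 31.4 FPKM in Wtap-HKO livers, against 52.0, 54.0 and 52.1 FPKM in Wtapflox/flox livers, with a narrow spread in both groups and a change of -0.67 ± 0.0766 (limma adjusted p = 0.00103), and was -0.09 on the TPM scale (adjusted p = 0.393). Atp5h, subunit d of the same stalk, was at 58.9, 66.1 and 55.9 FPKM in Wtap-HKO livers and at 84.7, 88.8 and 83.0 FPKM in Wtapflox/flox livers (-0.51 ± 0.0925, adjusted p = 0.00587, and 0.08 on the TPM scale). The 2 chains of the catalytic head differed in their calls. Atp5a1 (alpha) was at 252, 252 and 204 FPKM in Wtap-HKO livers and at 371, 344 and 306 FPKM in Wtapflox/flox livers and was called lower (-0.53 ± 0.131, adjusted p = 0.0181, and 0.06 on the TPM scale). Atp5b (beta) was at 272, 283 and 245 FPKM in Wtap-HKO livers and at 323, 310 and 297 FPKM in Wtapflox/flox livers and did not pass the test (-0.22 ± 0.101, adjusted p = 0.128), though its groups did not overlap, and rescaled to TPM it was called higher (0.37, adjusted p = 0.0127). That difference between Atp5a1 and Atp5b was not itself tested.

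Atp5g1, Atp5g2 and Atp5g3 encode the same mature subunit c of the rotor ring. Atp5g1 was called lower, at 15.3, 16.1 and 11.9 FPKM in Wtap-HKO livers against 20.1, 22.6 and 18.0 FPKM in Wtapflox/flox livers (-0.49 ± 0.144, limma adjusted p = 0.0338, and 0.09 on the TPM scale). Atp5g2 was at 44.7, 51.9 and 43.1 FPKM in Wtap-HKO livers and at 50.02, 44.5 and 43.6 FPKM in Wtapflox/flox livers (0.01 ± 0.105, adjusted p = 0.926, but 0.60 with an adjusted p = 0.00132 on the TPM scale). Atp5g3 was at 107, 116 and 82.5 FPKM in Wtap-HKO livers and at 132, 139 and 75.3 FPKM in Wtapflox/flox livers (-0.14 ± 0.255, adjusted p = 0.683). Some reads of Atp5g2 are uncertain, since 38.3% of its 50-base windows also occur in transcripts of other genes. The same holds for Ndufaf2 (64.1%), Atp5o (41.6%), Ndufb6 (31.6%), Ndufa13 (28.5%), Uqcrb (25.5%), Cox7c (22.1%) and Ndufs5 (21.7%).

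The 9 assembly factors among the members, which help to build complexes without staying in them, had a median of 0.06, or 0.62 on the TPM scale, and of -0.08 as deposited without replicate 3 of both groups. Of these, 1 was called lower, or 11.1%, against 20.7% of all genes, and 3 averaged 10 FPKM or more. The difference from the subunits was not tested. The 1 called was Ndufaf6, at 7.22, 7.51 and 7.97 FPKM in Wtap-HKO livers against 12.8, 11.0 and 11.6 FPKM in Wtapflox/flox livers (-0.63 ± 0.0958, limma adjusted p = 0.00296), with -0.05 on the TPM scale. Ndufaf6 takes part in the assembly of complex I.

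The 13 mt- genes, which encode 7 subunits of complex I, 1 of complex III, 3 of complex IV and 2 of complex V, included 2 called lower as deposited, or 15.4%, against 20.7% of all genes (2 of the 12 that averaged 10 FPKM or more, or 16.7%, against 43.1% of all genes of that level), and none called higher by limma (1 higher at an unadjusted p under 0.05, and 1 called higher by limma's voom on the rebuilt reads), with a median of -0.11, which is 0.11 below the median of all genes. On the TPM scale 3 were called higher, or 23.1%, against 48.8% of all genes, and none lower. The median there was 0.48, which is 0.04 below that of all genes. Cytochrome b, mt-Cytb (GRCm38 mitochondrial genome, 14145 to 15288), was at 4050, 4534 and 5300 FPKM in Wtap-HKO livers, against 8097, 6417 and 9565 FPKM in Wtapflox/flox livers. It was called lower, at -0.78 ± 0.244 (limma adjusted p = 0.0406), with no overlap, and was -0.20 on the TPM scale. The complex I subunit mt-Nd4 (10167 to 11544) was at 1473, 1675 and 1850 FPKM in Wtap-HKO livers, against 2337, 2221 and 3242 FPKM in Wtapflox/flox livers (-0.63 ± 0.202, adjusted p = 0.0456, and -0.04 on the TPM scale). Both calls were lost whichever of the 6 libraries was left out, at adjusted p = 0.0650 to 0.146 for mt-Cytb and 0.0714 to 0.128 for mt-Nd4. Without Wtap-HKO replicate 3, mt-Nd4l was the only mt- gene called lower (-0.81, adjusted p = 0.0429).

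The first protein-coding gene after the ribosomal RNAs, mt-Nd1 (2751 to 3707), had the highest fold change of the 13. It was at 6379, 8021 and 8722 FPKM in Wtap-HKO livers, against 4639, 4134 and 6017 FPKM in Wtapflox/flox livers, so that all Wtap-HKO values were above all Wtapflox/flox values, at 0.65 ± 0.248 (limma adjusted p = 0.0764). After rescaling to TPM it passed the test (1.24, adjusted p = 0.00447). The share of mt-Nd1 in the summed mt- FPKM was 21.3%, 22.7% and 22.3% in Wtap-HKO livers, against 11.9%, 12.7% and 12.2% in Wtapflox/flox livers. The share of mt-Cytb was 13.5%, 12.8% and 13.5% in Wtap-HKO livers, against 20.8%, 19.8% and 19.4% in Wtapflox/flox livers. The ratio of mt-Nd1 to mt-Cytb was thus 1.58, 1.77 and 1.65 in Wtap-HKO livers, against 0.573, 0.644 and 0.629 in Wtapflox/flox livers. In all 3 Wtap-HKO livers mt-Nd1 exceeded mt-Cytb, and in all 3 Wtapflox/flox livers mt-Cytb exceeded mt-Nd1. These genes had the highest and the lowest fold change of the 13, so their ratio restates those values and gives no separate support. An exact permutation test of 3 against 3 cannot go below p = 0.1, and that floor holds for a pair fixed in advance. With all libraries set to the same mt- sum, mt-Nd1 was the only mt- gene called (0.85, adjusted p = 0.0291, limma), where 15.2% of all genes were called higher and 5.72% lower. That sum includes mt-Nd1 itself and places the mt- genes on both sides of 0 by construction, so this call is no separate support. On that scale mt-Cytb was at -0.59 (adjusted p = 0.106).

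**Figure D3:**
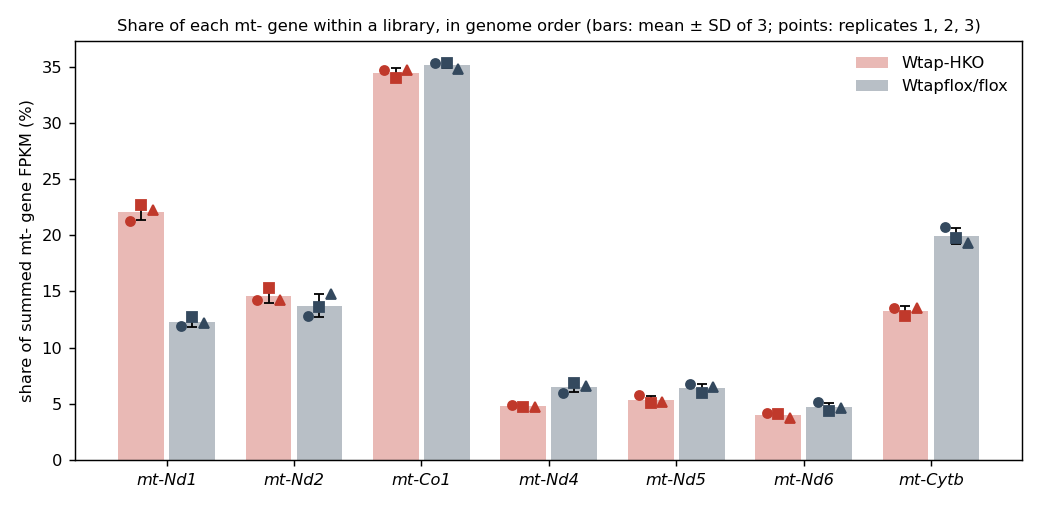
Share of each of the 7 mt- genes above 1% in the summed FPKM of the 13 mt- genes within a library (y axis, percent), in their order along the mitochondrial genome, for Wtap-HKO (left bar of each pair) and Wtapflox/flox livers (right bar). Bars are means ± SD of 3 livers and points are the livers. The shares of mt-Nd1 (21.3% to 22.7% in Wtap-HKO, 11.9% to 12.7% in Wtapflox/flox) and mt-Cytb (12.8% to 13.5% in Wtap-HKO, 19.4% to 20.8% in Wtapflox/flox) are the furthest apart.

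The other mt- genes differed less between the groups. The complex IV gene mt-Co1 was the most abundant per length, at 10416, 11995 and 13578 FPKM in Wtap-HKO livers and at 13781, 11498 and 17213 FPKM in Wtapflox/flox livers (-0.23 ± 0.288, limma adjusted p = 0.557), or 34.0% to 34.7% of the mt- sum in Wtap-HKO and 34.8% to 35.4% in Wtapflox/flox. The complex I gene mt-Nd2 was at 4268, 5389 and 5579 FPKM in Wtap-HKO livers and at 4983, 4413 and 7320 FPKM in Wtapflox/flox livers (adjusted p = 0.767). Also of complex I, mt-Nd5 was at 1720, 1790 and 2019 FPKM in Wtap-HKO livers and at 2625, 1937 and 3213 FPKM in Wtapflox/flox livers (adjusted p = 0.134). The light-strand gene mt-Nd6 was at 1243, 1439 and 1476 FPKM in Wtap-HKO livers and at 1995, 1416 and 2265 FPKM in Wtapflox/flox livers (adjusted p = 0.146), and since the strand setting of the counting is not given, reads from the opposite strand cannot be told apart there.

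The low mt- genes are uncertain, because parts of the mitochondrial genome have a copy in the nucleus. For mt-Co2, mt-Co3, mt-Atp6, mt-Nd4l and mt-Nd3, 98.0% to 100% of the 50-base windows also occur in transcripts of nuclear genes, and for mt-Nd4 and mt-Co1 it is 62.2% and 51.1%. The copies include a run of pseudogenes on chromosome 1, between 24611535 and 24616197. Levels of these 5 genes were 43.9 to 167 FPKM in Wtap-HKO livers and 61.2 to 186 FPKM in Wtapflox/flox livers, and none was called as deposited, while mt-Co3 was called higher on the TPM scale (0.66, adjusted p = 0.0309). The ATP synthase gene mt-Atp8, which overlaps mt-Atp6, was at 5.84, 8.18 and 8.12 FPKM in Wtap-HKO livers and at 5.28, 8.66 and 7.08 FPKM in Wtapflox/flox livers (adjusted p = 0.776, limma, and 0.65 with an adjusted p = 0.0322 on the TPM scale). In mt-Nd1, mt-Cytb and mt-Nd6 no window had a copy, so the contrast of mt-Nd1 and mt-Cytb does not rest on the copied genes, and mt-Nd4 has to be read with this limit.

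Nuclear and mitochondrial OXPHOS transcripts were then compared within each library. The summed mt- FPKM was 5.76, 5.97 and 8.56 times the summed nuclear OXPHOS FPKM in Wtap-HKO livers, against 5.79, 4.72 and 8.79 times in Wtapflox/flox livers. The groups overlapped throughout, and the difference of the mean log2 ratios, 0.10, was small against the SD of 0.32 in Wtap-HKO and 0.46 in Wtapflox/flox (n = 3 each). It turned negative without Wtap-HKO replicate 3 (-0.08) and without Wtapflox/flox replicate 2 (-0.10). With the 6 mt- genes that have few or no windows copied in annotated transcripts alone, the ratio was 3.39, 3.58 and 5.05 in Wtap-HKO livers and 3.32, 2.66 and 5.05 in Wtapflox/flox livers. A shift of the mitochondrial against the nuclear share was therefore not detectable with 3 livers per group. The mt- genes took 4.61%, 5.08% and 5.95% of all reads in Wtap-HKO livers and 4.13%, 3.49% and 5.23% in Wtapflox/flox livers.

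**Figure D4:**
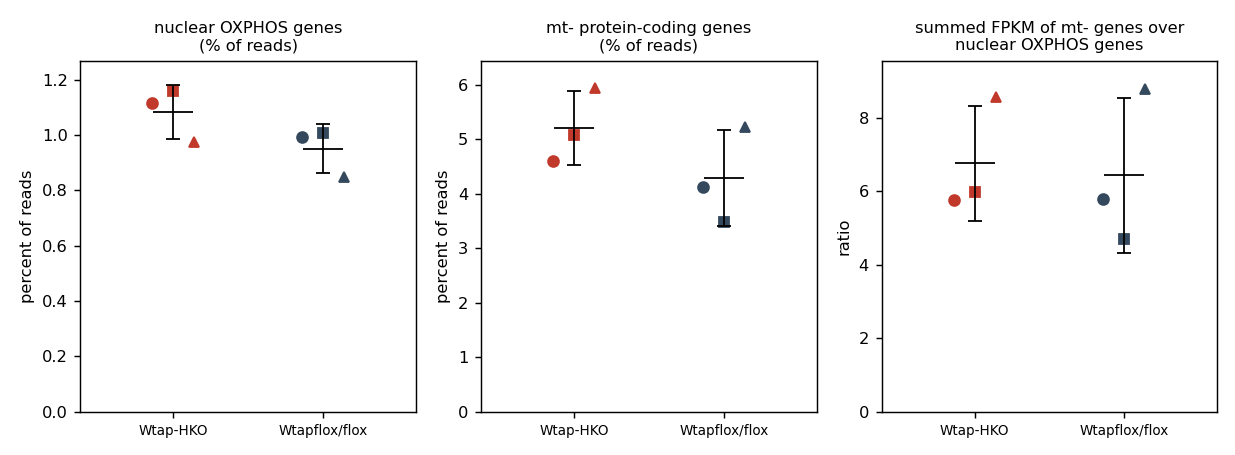
Percent of reads in the nuclear OXPHOS genes (left) and in the mt- protein-coding genes (middle), and the ratio of their summed FPKM (right), for 3 Wtap-HKO and 3 Wtapflox/flox livers, with each replicate as its own symbol (circle, square and triangle for 1, 2 and 3) and bars at the mean ± SD. The ratio lies between 5.76 and 8.56 in Wtap-HKO and between 4.72 and 8.79 in Wtapflox/flox, and replicate 3 is the highest in both groups.

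The spread between livers of a group had a pattern of its own. In both groups replicate 3 had the lowest nuclear and the highest mitochondrial OXPHOS levels. It was the lowest of the 3 livers for 74 of the 89 tested nuclear members in Wtap-HKO and for 70 in Wtapflox/flox, or 83.1% and 78.7%, against 31.5% and 34.1% of all genes. For mt- genes it was the highest in 12 of 13 in Wtap-HKO and 9 of 13 in Wtapflox/flox. Against the mean of replicates 1 and 2, the median difference over nuclear members was -0.25 on the log2 scale in Wtap-HKO and -0.22 in Wtapflox/flox, and over mt- genes 0.25 in Wtap-HKO and 0.45 in Wtapflox/flox. Across all 16547 genes these medians were -0.02 in Wtap-HKO and 0.00 in Wtapflox/flox. Across the 89 nuclear members Pearson's r between both groups' differences was 0.64, across all genes it was 0.06, and genes are not independent replicates. Atp5k (subunit e of complex V, named after its values were seen) was the extreme, at 49.3, 48.3 and 26.7 FPKM in Wtap-HKO livers and at 49.6, 59.9 and 9.62 FPKM in Wtapflox/flox livers. The labels give no shared litter, day or run for these numbers. Without replicate 3 of both groups, 19 nuclear members were called lower, 16 of them among the 32, and none higher, where 10% of all genes were called lower and 8.14% higher. The shares of equally abundant genes were not computed for that omission. By limma no mt- gene was then called, with 1 lower at an unadjusted p under 0.05.

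**Figure D5:**
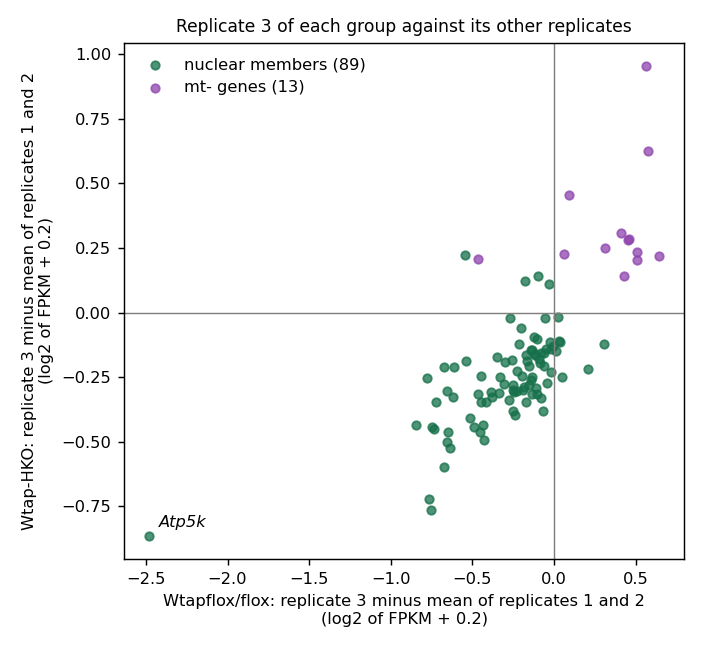
Replicate 3 minus the mean of replicates 1 and 2 on the log2(FPKM + 0.2) scale, in Wtap-HKO (y axis) and in Wtapflox/flox (x axis), for the 89 nuclear members and the 13 mt- genes. For 78 nuclear members the value is below 0 in both groups and for 12 mt- genes it is above 0 in both, with Atp5k at the lower left.

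Genes that serve OXPHOS without being members by the name rule were read from fixed lists. The counts of each list have to be read against the 20.7% of all genes called lower and 19.5% called higher as deposited (43.1% and 14.1% at 10 FPKM or more), and the 6.06% and 48.8% on the TPM scale. Electron carriers and entry points outside the rule had 13 tested genes, of which 5 were called lower, or 38.5%, and 1 higher, with a median of -0.33, and none lower and 4 higher on the TPM scale. Atp5mpl, on this list, is also a member. Etfdh, which feeds electrons from fatty acid oxidation to ubiquinone, averaged 29.9 ± 2.40 FPKM in Wtap-HKO livers and 50.7 ± 3.04 FPKM in Wtapflox/flox livers (SD, n = 3 each; -0.76, limma adjusted p = 0.00136, and -0.17 on the TPM scale). Higd2a, a complex IV assembly protein, was at -0.62 (adjusted p = 0.00670, and -0.04 on the TPM scale). Atpif1, the protein that inhibits the ATP synthase when it runs in reverse, was the exception. It averaged 11.2 ± 1.11 FPKM in Wtap-HKO livers and 4.80 ± 0.683 FPKM in Wtapflox/flox livers, higher by 1.19 (adjusted p = 0.00103) and by 1.76 on the TPM scale.

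The pyruvate dehydrogenase and tricarboxylic acid cycle list, whose enzymes supply the NADH and succinate that complexes I and II use, had 10 of 19 genes called lower, or 52.6%, and 1 higher, with a median of -0.45, and none lower and 8 higher on the TPM scale. Of the 17 that averaged 10 FPKM or more, 10 were called lower, or 58.8%. Fumarase, Fh1, averaged 47.1 ± 2.18 FPKM in Wtap-HKO livers and 83.7 ± 3.30 FPKM in Wtapflox/flox livers (-0.83, limma adjusted p = 0.000624, and -0.24 on the TPM scale). Pyruvate carboxylase, Pcx, which makes oxaloacetate for gluconeogenesis, averaged 94.6 ± 10.3 FPKM in Wtap-HKO livers and 167 ± 10.5 FPKM in Wtapflox/flox livers (-0.82, adjusted p = 0.00175, and -0.24 on the TPM scale). Idh2, the NADP-dependent isocitrate dehydrogenase, rose on both scales, to 81.9 ± 8.63 FPKM in Wtap-HKO livers against 49.4 ± 3.02 FPKM in Wtapflox/flox livers (0.73, adjusted p = 0.00241, and 1.31 on the TPM scale).

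For coenzyme Q, the lipid carrier between the dehydrogenases and complex III, 4 of 13 genes were called lower, or 30.8%, and 1 higher, and 2 lower and 10 higher on the TPM scale. Coq10a, a coenzyme Q binding protein, averaged 5.45 ± 0.411 FPKM in Wtap-HKO livers and 13.03 ± 0.961 FPKM in Wtapflox/flox livers (-1.23, limma adjusted p = 0.000371), and its relative Coq10b 4.26 ± 0.742 FPKM in Wtap-HKO livers and 9.56 ± 1.97 FPKM in Wtapflox/flox livers (-1.12, adjusted p = 0.00377). Both stayed lower on the TPM scale, at -0.65 (adjusted p = 0.00141) and -0.55 (adjusted p = 0.0424). The kinase-like Coq8a was at -0.64 (adjusted p = 0.00326), and -0.05 on the TPM scale.

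Of the assembly factors outside the rule 6 of 39 were called lower, or 15.4%, and 3 higher, both below the background, and none lower and 23 higher on the TPM scale. Tmem186, of the complex I assembly machinery, was at -0.997 (limma adjusted p = 0.00374, and -0.44 with an adjusted p = 0.0695 on the TPM scale). Coa7 and Coa3, which assist complex IV, rose by 0.93 (adjusted p = 0.00391) and 0.66 (adjusted p = 0.0107) and by 1.504 and 1.24 on the TPM scale. The import and chaperone list had 3 of 14 lower, or 21.4%, near the background of all genes, and 1 higher, and none lower and 12 higher on the TPM scale. Of its 11 genes that averaged 10 FPKM or more, 2 were called lower, or 18.2%, below the 43.1% of all genes of that level. Its Timm17b and Tomm70a, of the inner and outer membrane import machinery, were at -0.79 (adjusted p = 0.00307) and -0.58 (adjusted p = 0.00193), and at -0.22 and 0.00 on the TPM scale, and the chaperonin Hspd1 was at 0.35 (adjusted p = 0.0419), and at 0.94 on the TPM scale.

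Among 46 genes that copy, cut and translate the mt- transcripts, 11 were called lower, or 23.9%, near the background of all genes, and 4 higher, with a median of -0.15, and 2 lower and 26 higher on the TPM scale. Of the 12 that averaged 10 FPKM or more, 3 were called lower, or 25%, below the 43.1% of all genes of that level. Mterf3 and Hsd17b10 stayed lower on both scales. Mterf3, a regulator of mitochondrial transcription and ribosomes, averaged 2.33 ± 0.235 FPKM in Wtap-HKO livers and 4.88 ± 0.284 FPKM in Wtapflox/flox livers (-1.01, limma adjusted p = 0.00109, and -0.45 with an adjusted p = 0.0129 on the TPM scale). Hsd17b10, a subunit of the mitochondrial RNase P that frees tRNAs from the long transcripts, averaged 48.8 ± 1.86 FPKM in Wtap-HKO livers and 91.4 ± 3.04 FPKM in Wtapflox/flox livers (-0.90, adjusted p = 0.000426, and -0.32 with an adjusted p = 0.0159 on the TPM scale). Mterf2, of the same family as Mterf3, averaged 1.67 ± 0.250 FPKM in Wtap-HKO livers and 0.725 ± 0.279 FPKM in Wtapflox/flox livers (1.05, adjusted p = 0.0149, and 1.54 on the TPM scale). The mitochondrial RNA polymerase Polrmt was at -0.53 (adjusted p = 0.0160, and 0.04 on the TPM scale), the mRNA-stabilising Lrpprc at -0.40 (adjusted p = 0.0132, and 0.18 on the TPM scale), and the packaging factor Tfam at -0.18 with no call (adjusted p = 0.143, and 0.40 on the TPM scale).

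The nuclear regulators of mitochondrial biogenesis had 5 of 15 genes called lower, or 33.3%, and none higher, and none lower and 8 higher on the TPM scale. The coactivator Ppargc1a (PGC-1alpha) averaged 3.68 ± 1.70 FPKM in Wtap-HKO livers and 3.31 ± 0.918 FPKM in Wtapflox/flox livers, within the spread between replicates (limma adjusted p = 0.844). By RT-qPCR on more mice per group, the study reported lower mRNA of this gene in Wtap-HKO livers, a fall that these values do not show. Nrf1 (adjusted p = 0.223), Gabpa (adjusted p = 0.318) and Esrra (adjusted p = 0.940) were not called as deposited either, and on the TPM scale these 3 were called higher. Sirt3, the deacetylase of the mitochondrial matrix, averaged 7.83 ± 1.04 FPKM in Wtap-HKO livers and 14.8 ± 1.67 FPKM in Wtapflox/flox livers (-0.90, adjusted p = 0.00271), the coactivator Ppargc1b averaged 2.34 ± 0.438 FPKM in Wtap-HKO livers and 4.32 ± 0.571 FPKM in Wtapflox/flox livers (-0.84, adjusted p = 0.00779), and the deacetylase Sirt1 was at -0.49 (adjusted p = 0.0400). These 3 were, on the TPM scale, at -0.32, -0.29 and 0.06 and not called.

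The calls on the nuclear members depend on single livers as well as on the scale. Of the 32 lower calls, 17 held without any single library, among them Sdha, Sdhc, Ndufs7, Ndufs8, Ndufb7, Ndufa6, Ndufs1, Ndufa4, Atp5j, Atp5h and Ndufaf6, and the count ranged between 17 and 37 with each library left out in turn. Of all 16547 genes, 2483 to 3090 were called lower in the same omissions, against 3431 with all libraries. The share of all lower calls that held in every omission was not computed, so no difference from all genes can be read from the 17. Sdhb, Uqcrc1, Atp5a1, Atp5g1 and Ndufv1 each lost the call in 3 or 4 of the 6 omissions.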

How the data were processed

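Total RNA of 6 flash-frozen livers was used, and the study's methods describe mRNA profiles sequenced on the Illumina platform. The authors aligned paired-end reads to GRCm38.p6 with TopHat2 and counted them per gene with HTSeq 0.6.1, as the study's methods and the submitters' processing notes name them, and deposited FPKM. Not given in the sources used here are the annotation release, the strand setting and the tool behind the FPKM. In each library 100% of the deposited FPKM traced back to whole read counts within 0.01 reads. The FPKM divisor holds a scaling between libraries beyond the total of reads. Median-of-ratios factors of the deposited FPKM were 1.0056 to 1.0059 in all 6 libraries, so this scaling is close to a median-of-ratios one.

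Values were tested as log2(FPKM + 0.2) with limma 3.58.1 (R 4.3.3; trend in eBayes) over genes that averaged 0.2 FPKM or more, with Benjamini-Hochberg adjustment over all of them. Fold changes of low genes are understated by the pseudocount. The fit was also run on simulated reads with a common dispersion and independent libraries. Those lack the shared pattern of replicate 3, so that run does not gauge the error rate in these data. Named genes were all 13 mt- genes, the 4 called nuclear members of largest change per complex with a mean of at least 1 FPKM, core subunits, isoform sets, and per list the 3 called genes of largest change and chosen regulators. A core subunit that this rule names is not reported here, though it stays in the fit and the counts. The members and lists were chosen with earlier results of these data known. Alternatives were pseudocounts of 1 and 0.05, other minimum levels, TPM with and without mt- genes, median-of-ratios scaling, voom on the rebuilt reads, eBayes without trend, protein-coding genes alone, a replicate block and omission of each library. The voom fit used the library sizes behind the deposited FPKM, so it kept their scaling between libraries. Equal nuclear or mt- sums and omission of replicate 3 of both groups were added after the data had been seen. Promoter windows came from RefSeq (GRCm38.p6), where 75 of 94 nuclear members matched by symbol, as 74 distinct windows. Copies were counted as exact 50-base windows shared with transcripts of other genes.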

Additional observations from a re-analysis of the deposited data

How the results depend on the processing

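Median-of-ratios factors of the deposited FPKM were 1.0056 to 1.0059 in all 6 libraries. That scaling is thus close to the deposited one and could hardly change a call. Under pseudocounts of 1 and 0.05, each named gene kept its direction and its side of the threshold, and counts stayed within 1.5 times. The scale between libraries changed most of them. On the TPM scale 8076 genes were called higher and 1002 lower, and on TPM without the mt- genes 8511 and 929. Nuclear members were then called higher for 34 (TPM) and 42 (without mt- genes) and lower for 0 on both, with medians of 0.27 and 0.32, and mt- genes higher for 3 and lower for 0 on both, with medians of 0.48 and 0.52. With equal nuclear sums 1368 genes were called lower, nuclear members 5 higher and 4 lower (median -0.0191), mt- genes 1 higher and 0 lower (median 0.19). With equal mt- sums 947 genes were called lower, nuclear members 0 lower (median -0.12), mt- genes 1 higher and 0 lower (median 0.0897).

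Log2 fold changes that were negative as deposited were positive on the TPM scale and on TPM without mt- genes for Atp5a1 (0.0575, 0.10), Atp5b (0.37, 0.41), Atp5g1 (0.0921, 0.14), Atp5h (0.0805, 0.13), Cox4i1 (0.31, 0.36), Cox5a (0.41, 0.46), Cox6a1 (0.47, 0.52), Cox6b1 (0.53, 0.58), Cox8a (0.38, 0.42), Gabpa (0.45, 0.49), Lrpprc (0.18, 0.23), Ndufs1 (0.0515, 0.0961), Ndufv1 (0.0790, 0.12), Polrmt (0.0393, 0.0831), Sdhb (0.0869, 0.13), Sdhc (0.0435, 0.0885), Sirt1 (0.0573, 0.0995), Tfam (0.40, 0.45) and Uqcrc1 (0.16, 0.21). On TPM without mt- genes, Cox7a2 (0.34) and Cox7b (0.31) were also called higher, and values just above 0 were found for Higd2a (0.00652), Ndufa4 (0.0281), Ndufa6 (0.00695), Tomm70a (0.0420) and mt-Nd4 (0.00585).

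With single libraries left out in turn, 2143 to 2978 genes were called higher (2143 without Wtap-HKO replicate 3) and 2483 to 3090 lower, nuclear members 1 to 2 higher and 17 to 37 lower, mt- genes 0 to 1 lower, and the difference of the log2 ratio of mt- to nuclear sums ranged between -0.10 and 0.35. Nuclear members were called lower for 21 without Wtap-HKO replicate 1, 17 without Wtap-HKO replicate 3, 17 without Wtapflox/flox replicate 1 and 18 without Wtapflox/flox replicate 2. That difference was -0.08 without Wtap-HKO replicate 3 and -0.10 without Wtapflox/flox replicate 2. Without replicate 3 of both groups 1347 genes were called higher and 1657 lower, nuclear members 0 higher (1 at an unadjusted p under 0.05) and 19 lower, and mt- genes 0 lower (1 at an unadjusted p under 0.05). A minimum of 1 FPKM left 0 nuclear members higher, since the means of Cox6a2 and Cox6b2 lie below it, and gave 1 mt- gene higher, as did protein-coding genes alone, eBayes without trend and voom. With no minimum, 0 mt- genes were lower. The cause of these changes was not tested.

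The labels give the replicate numbers no shared litter, batch or day, and by the correlations over all genes the livers were not treated as pairs. The deviations of same-numbered livers correlated at 0.0146 to 0.0642 over all genes, and 5 of 6 libraries correlated best with their own number, whereas over the members it was 0.368 to 0.734 and 6 of 6, as a hint from the data only. With the replicate number as a block, 3057 genes were called higher and 3508 lower, nuclear members 3 higher and 43 lower, and mt- genes 0 higher and 3 lower, mt-Nd4l (adjusted p = 0.00778) besides mt-Cytb and mt-Nd4.

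With 3 livers per group, small changes are missed, and genes with few reads (Cox6a2, Cox4i2, mt-Tm) carry wide counting errors, which intervals cover alone.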

Other observations

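The mitochondrial ribosomal RNAs and tRNAs belong to no comparison above. The study's methods describe mRNA profiles, so reads on these genes may not reflect the levels of the mature ribosomal RNAs and tRNAs. The kind of transcript these reads came from was not tested. The large ribosomal RNA mt-Rnr2 (GRCm38 mitochondrial genome, 1094 to 2675), which lies just before mt-Nd1, stood at 173, 212 and 232 FPKM in Wtap-HKO livers, against 422, 483 and 460 FPKM in Wtapflox/flox livers. It was lower on both scales (-1.15 ± 0.135, limma adjusted p = 0.00114, and -0.56 with an adjusted p = 0.0101 on the TPM scale), and its groups did not overlap. The small ribosomal RNA mt-Rnr1 was at 257, 377 and 411 FPKM in Wtap-HKO livers and at 398, 472 and 384 FPKM in Wtapflox/flox livers, with no call (adjusted p = 0.283). The tRNA mt-Tm, between mt-Nd1 and mt-Nd2, was at 0.691, 1.34 and 0.728 FPKM in Wtap-HKO livers, against 7.81, 18.4 and 5.24 FPKM in Wtapflox/flox livers. These values are 1, 2 and 1 reads in Wtap-HKO livers, against 7, 18 and 5 reads in Wtapflox/flox livers, a ratio of 0.0874 after scaling with a 95% exact counting interval of 0.0224 to 0.248. It was called lower on both scales (limma adjusted p = 0.00258 as deposited and 0.00278 on the TPM scale), and the size of its change rests on few reads. The more abundant mt-Tp was at 1559, 2276 and 2114 FPKM in Wtap-HKO livers and at 1657, 2169 and 2175 FPKM in Wtapflox/flox livers, with no call (adjusted p = 0.948). These genes were named after their values were seen.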
